A study of Homo sapiens with 6 samples.

Results

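The Kelch-like genes measured here were the 34 genes, of 19775 tested, whose only symbol in the array's annotation was KLHL followed by digits. The genes were chosen by name, and 1 probe set per gene by its mean over all 6 arrays, so the brightness of these probe sets is a description. RNA of DLD-1, an established human colon cancer cell line, was hybridised to 6 Affymetrix arrays, 3 of cells labelled DLD-1Δα-Cat and 3 of cells labelled DLD-1α-Cat. The labels call both subclones of DLD-1 and do not spell out Δα-Cat, so each group stands for a derived line and not for DLD-1 cells at large. Both had grown untreated for 96 h in a gel of type I collagen at 1 mg/ml. Values are log2 intensities. A difference is the DLD-1Δα-Cat mean minus the DLD-1α-Cat mean on that scale, given with the standard error (SE) and the adjusted p of limma's moderated test. A gene passed where its p, adjusted by Benjamini and Hochberg over all 19775 genes, lay under 0.05. No label states separate cultures for the 3 arrays of each group, and p-values therefore cover the spread among these samples alone, possibly a technical one.

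KLHL proteins carry a BTB domain, a BACK domain and a propeller of Kelch repeats. In most of those studied the BTB domain binds CUL3, the scaffold of a family of ubiquitin ligases, and the Kelch propeller holds the protein to be ubiquitinated, so that each KLHL protein gives the ligase its own substrates. Several Kelch proteins also bind actin, which is also what αE-catenin, the product of CTNNA1, connects to adherens junctions.

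CTNNA1, the check of the labels, read 11.38, 11.30 and 11.01 on the DLD-1Δα-Cat arrays, against 12.73, 12.74 and 12.79 on the DLD-1α-Cat arrays (difference -1.52, SE 0.119, adjusted p = 0.000838). Its RNA was thus lower in DLD-1Δα-Cat but still bright, and the mean of its 5 probe sets differed by -1.23. All 10 colonic epithelial markers lay above the median level of all genes (7.82), with EPCAM at 13.41 in DLD-1Δα-Cat, against 13.46 in DLD-1α-Cat. None of 10 fibroblast, 8 endothelial and 6 leukocyte markers did. Of the colonic markers LGALS4 differed most, without passing (-0.49, adjusted p = 0.320), and of the others CD14, a monocyte receptor, was called (-1.17, adjusted p = 0.00517), though not with the β-actin ratio described next as a covariate (-0.95, adjusted p = 0.259). The mean level of the 3 lists of other cell types on single arrays ran from 4.50 to 5.04 in DLD-1Δα-Cat, against 4.44 to 5.23 in DLD-1α-Cat. A sign of RNA quality differed with the subclone: the log2 ratio between the β-actin controls placed at the 3' and the 5' end of its RNA was 5.07 to 5.38 in DLD-1Δα-Cat, against 4.36 to 4.89 in DLD-1α-Cat. On all 6 arrays the 3' control was thus much brighter than the 5' one. What this means for probe sets at other places in a gene was not tested. The ranges of this ratio do not overlap, so a fit with it as a covariate cannot tell RNA quality from the subclone. A call lost in that fit cannot be assigned to either. With 3 arrays each, the number of arrays limits the precision of every value.

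Of the 34 KLHL genes, 1 fell and 3 rose in DLD-1Δα-Cat. KLHL4 fell, and KLHL41, KLHL29 and KLHL24 rose. The 4 called genes are 11.8% of the family, where 5.52% of all genes were called. The 3 higher genes are 8.82% of it, where 3.84% of all genes were higher, and the 1 lower gene is 2.94%, where 1.67% were lower. The fall of KLHL4 was known before the family was chosen, so these shares say nothing particular about KLHL genes. The median difference of the 34 genes was 0.06, beside -0.0302 for all genes. Differences ran from -4.23 to 2.14, and the 30 genes that did not pass lay between -0.36 and 0.89.

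**Figure D1:**
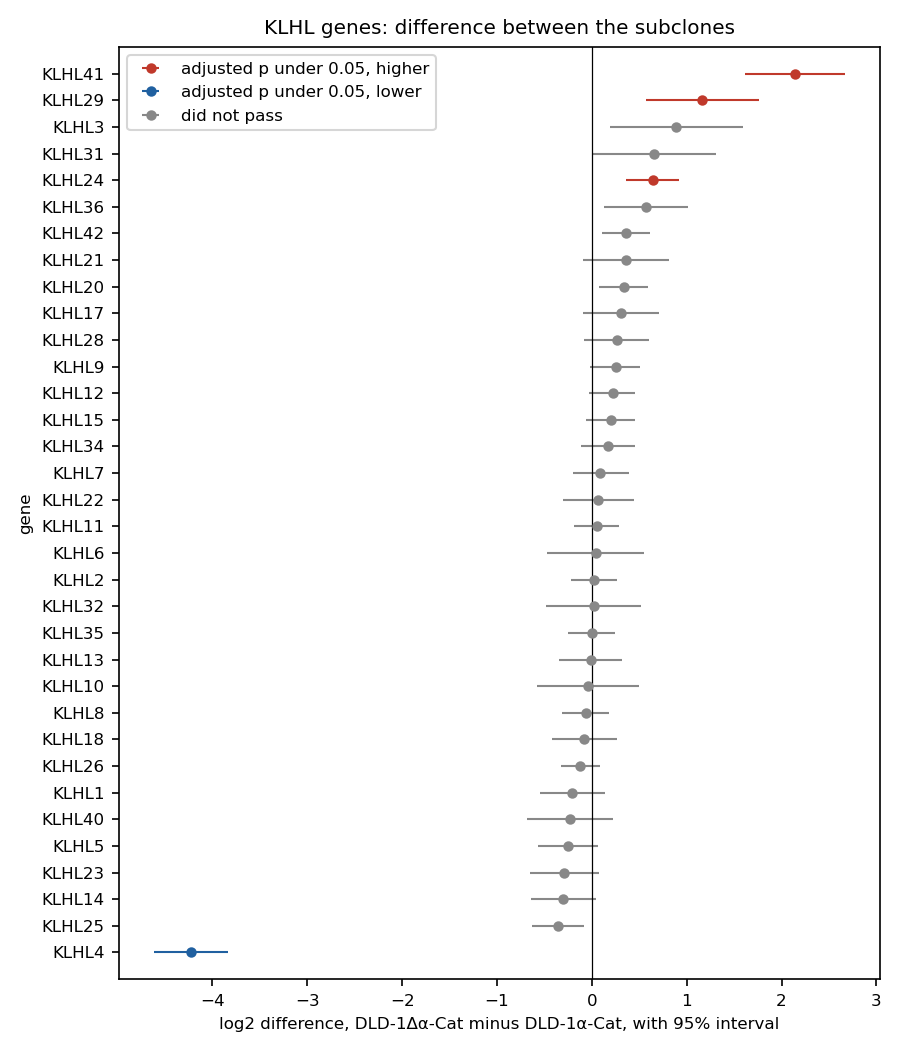
Log2 difference between the subclones, DLD-1Δα-Cat minus DLD-1α-Cat (horizontal axis), for each of the 34 KLHL genes (rows), as points with 95% intervals of the moderated fit. KLHL4 stands alone at -4.23, and of the genes above 0 KLHL41 reaches 2.14.

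Promoter windows of the 4 called genes are shown to set their content of CG, the dinucleotide that DNA methylation acts on in mammals, beside their differences. Each window runs from 250 bases before to 50 bases after the start of the gene in RefSeq (GRCh38.p14), 5′ to 3′ on the gene's strand, with every CG in capitals. All 4 genes lie on the plus strand, KLHL4 at chrX:87517552-87517851, KLHL41 at chr2:169509452-169509751, KLHL24 at chr3:183635373-183635672 and KLHL29 at chr2:23384929-23385228.
KLHL4: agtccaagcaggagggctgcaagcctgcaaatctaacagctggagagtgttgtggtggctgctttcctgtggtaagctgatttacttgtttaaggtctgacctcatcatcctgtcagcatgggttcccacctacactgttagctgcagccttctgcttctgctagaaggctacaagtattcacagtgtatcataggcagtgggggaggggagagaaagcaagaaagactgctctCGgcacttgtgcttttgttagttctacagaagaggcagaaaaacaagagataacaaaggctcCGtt
KLHL41: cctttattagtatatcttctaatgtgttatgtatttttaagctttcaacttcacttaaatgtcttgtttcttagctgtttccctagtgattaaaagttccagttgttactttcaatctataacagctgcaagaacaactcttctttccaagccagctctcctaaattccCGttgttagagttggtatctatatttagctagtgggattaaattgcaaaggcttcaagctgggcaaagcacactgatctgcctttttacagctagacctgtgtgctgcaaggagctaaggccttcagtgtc
KLHL24: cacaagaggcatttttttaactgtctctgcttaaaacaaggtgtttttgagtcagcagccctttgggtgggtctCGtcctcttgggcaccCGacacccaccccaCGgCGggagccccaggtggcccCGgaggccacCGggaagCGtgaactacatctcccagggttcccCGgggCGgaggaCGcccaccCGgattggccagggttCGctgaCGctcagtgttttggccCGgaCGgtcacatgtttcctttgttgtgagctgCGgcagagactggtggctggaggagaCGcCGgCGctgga
KLHL29: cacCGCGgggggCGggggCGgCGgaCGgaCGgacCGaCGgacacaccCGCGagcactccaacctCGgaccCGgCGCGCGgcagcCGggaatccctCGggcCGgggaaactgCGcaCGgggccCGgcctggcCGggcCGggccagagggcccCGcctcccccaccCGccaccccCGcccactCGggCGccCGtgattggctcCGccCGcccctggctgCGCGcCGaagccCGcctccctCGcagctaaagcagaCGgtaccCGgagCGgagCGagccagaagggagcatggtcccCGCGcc
The KLHL4 window holds 2 CG and the KLHL41 window 1, and 11.0% and 3.96% of all 35116 RefSeq promoter windows hold fewer. The KLHL24 window holds 19 CG and the KLHL29 window 43, with 57.1% and 95% of all windows below them. Windows were found for 31 of the 34 genes, 41 in all, with a median of 15 CG beside 14 over all windows. KLHL5, which did not pass, also has 2 CG in its window. The letters TATAAA, searched on both strands, are in none of the 4 windows and in 11.5% of all windows. CANNTG, the E-box, which reads the same on both strands and cannot coincide with TATAAA, occurs 2 times each in the windows of KLHL4, KLHL41 and KLHL24, and 0 times in that of KLHL29. It is in 68.7% of all windows.

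KLHL4 is an X-linked gene whose closest relatives are KLHL1, an actin-binding protein of neurons, and KLHL5, which is broadly expressed. KLHL4 read 2.68, 2.52 and 2.99 on the DLD-1Δα-Cat arrays, against 6.80, 6.83 and 7.24 on the DLD-1α-Cat arrays. The groups lay far apart, and all 3 DLD-1Δα-Cat values were near the bottom of the array's scale, where RNA cannot be told from background. The difference was -4.23 (SE 0.168, 95% interval -4.62 to -3.84, adjusted p = 3.31e-05). It is a difference of array values and gives no exact ratio of RNA amounts, since the dimmer group lies where intensity may not follow RNA. In such bulk RNA, fewer cells with KLHL4 RNA and less of it per cell cannot be told apart. The second KLHL4 probe set also passed, at -0.63 (SE 0.0973, adjusted p = 0.0222 in a fit over all 54613 probe sets). It averaged 4.26 in DLD-1Δα-Cat, against 4.89 in DLD-1α-Cat, so the probe sets agree in direction and differ in size. Both means are dim: on single arrays the fibroblast, endothelial and leukocyte lists averaged 4.50 to 5.04 in DLD-1Δα-Cat, against 4.44 to 5.23 in DLD-1α-Cat. Even in DLD-1α-Cat, the brighter KLHL4 probe set stayed below the median level of all genes (7.82). KLHL4 also passed when the β-actin ratio entered the fit, which was tried only once the data had been seen (-3.74, adjusted p = 0.00276). That fit cannot tell RNA quality from the subclone, so a call kept in it settles neither.

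Neither relative passed. KLHL5 was bright and read 10.70, 10.97 and 10.88 in DLD-1Δα-Cat, against 11.33, 11.04 and 10.91 in DLD-1α-Cat. The groups overlapped, with a difference of -0.25 (95% interval -0.57 to 0.07, adjusted p = 0.351). Of its 5 probe sets none passed, and they ran from -0.49 to 0.17. KLHL1 read 5.93, 6.01 and 6.24 in DLD-1Δα-Cat, against 6.51, 6.06 and 6.22 in DLD-1α-Cat (difference -0.21, 95% interval -0.55 to 0.14, adjusted p = 0.457). Its groups overlapped too. The intervals of both relatives lie wholly above that of KLHL4, although the differences were not tested against each other.

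**Figure D2:**
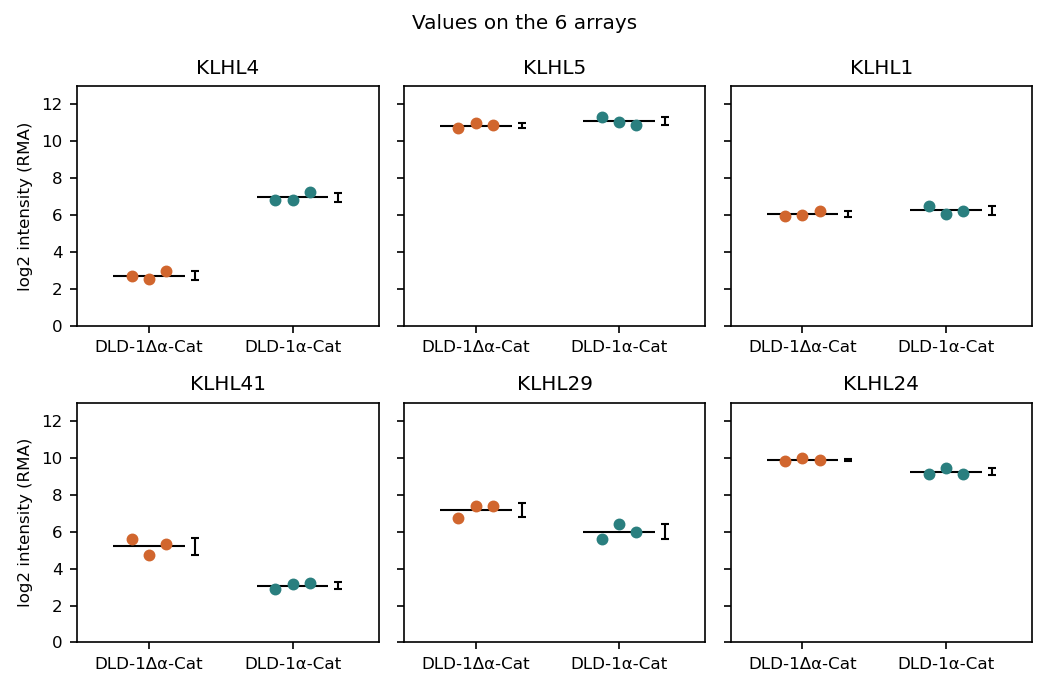
Log2 intensity (vertical axis) on each array for KLHL4 and its relatives KLHL5 and KLHL1 (top) and for the 3 KLHL genes that rose (bottom), with DLD-1Δα-Cat left of DLD-1α-Cat. Points are arrays, lines are group means and bars beside them are the SD (n = 3). The DLD-1Δα-Cat arrays lie below 3 for KLHL4, and the KLHL5 and KLHL1 groups overlap.

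KLHL41 and KLHL40 stabilise proteins of the sarcomere in striated muscle, both are mutated in nemaline myopathy, and KLHL31 is a further muscle member. KLHL41 read 5.60, 4.71 and 5.35 on the DLD-1Δα-Cat arrays, against 2.87, 3.16 and 3.20 on the DLD-1α-Cat arrays. Every DLD-1Δα-Cat value was higher, and the DLD-1α-Cat values were near the bottom of the scale. The difference was 2.14 (SE 0.226, 95% interval 1.61 to 2.67, adjusted p = 0.00301), and as for KLHL4 it gives no exact ratio of RNA amounts. Even in DLD-1Δα-Cat, KLHL41 stayed below the median level of all genes. Its mean there, 5.22, was little above the mean levels of the fibroblast, endothelial and leukocyte lists on those arrays (4.50 to 5.04). Detection of its RNA in DLD-1Δα-Cat was not tested. The dimmer KLHL41 probe set did not pass (0.34, adjusted p = 0.621 over all probe sets), and with the β-actin ratio as a covariate the brighter one did not (2.56, adjusted p = 0.0691).

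The other muscle members did not pass. KLHL31 read 7.12, 6.29 and 6.97 in DLD-1Δα-Cat, against 5.90, 6.64 and 5.86 in DLD-1α-Cat (difference 0.66, 95% interval 0.01 to 1.31, adjusted p = 0.237). A DLD-1α-Cat array, replicate 2, lay among the DLD-1Δα-Cat values. KLHL40 was dim in both subclones, with 4.84 ± 0.140 in DLD-1Δα-Cat, against 5.07 ± 0.382 in DLD-1α-Cat (SD, n = 3 each; adjusted p = 0.529). Nebulin (NEB), the giant sarcomere protein that KLHL40 stabilises, averaged 6.01 in DLD-1Δα-Cat, against 5.26 in DLD-1α-Cat, and did not pass (0.75, adjusted p = 0.0630). LMOD3, from the same list of reported KLHL substrates and partners, went the other way without passing. It averaged 4.73 in DLD-1Δα-Cat, against 5.15 in DLD-1α-Cat (-0.43, adjusted p = 0.132).

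KLHL24 is an adaptor that acts on KRT14, the basal keratin of skin, and its mutations cause a skin fragility disorder. KLHL24 read 9.83, 9.97 and 9.87 in DLD-1Δα-Cat, against 9.15, 9.47 and 9.13 in DLD-1α-Cat. The groups did not overlap, and KLHL24 was the 1 called member brighter than the median of all genes in both subclones. Its difference was 0.64 (SE 0.121, 95% interval 0.36 to 0.92, adjusted p = 0.0271), or 1.56-fold. Its 4 further probe sets lay between 0.08 and 0.36, and none passed. The mean of its probe sets differed by 0.27 (adjusted p = 0.408), and KLHL24 passed in 1 of the 6 fits that left out an array, that without replicate 2 of DLD-1α-Cat (0.75, adjusted p = 0.0149). In the other fits its difference was 0.58 to 0.67, with adjusted p from 0.0636 to 0.115. KRT14 was dim and averaged 5.63 in DLD-1Δα-Cat, against 5.63 in DLD-1α-Cat (adjusted p = 0.996).

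KLHL29 read 6.74, 7.38 and 7.38 in DLD-1Δα-Cat, against 5.58, 6.42 and 6.01 in DLD-1α-Cat. Each DLD-1Δα-Cat array lay above each DLD-1α-Cat array. No role was set for KLHL29 here. The difference was 1.16 (SE 0.254, 95% interval 0.57 to 1.76, adjusted p = 0.0438), or 2.24-fold. Its 3 further probe sets, at -0.30, 0.13 and 0.36, did not pass, and the mean of all 4 differed by 0.34 (adjusted p = 0.164). KLHL29 did not pass without replicate 2 (1.06, adjusted p = 0.147) or 3 (1.06, adjusted p = 0.136) of DLD-1Δα-Cat, nor without replicate 1 (0.95, adjusted p = 0.0845) or 3 (1.17, adjusted p = 0.146) of DLD-1α-Cat. With the β-actin ratio as a covariate neither KLHL24 (0.43, adjusted p = 0.584) nor KLHL29 (1.04, adjusted p = 0.597) passed.

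**Figure D3:**
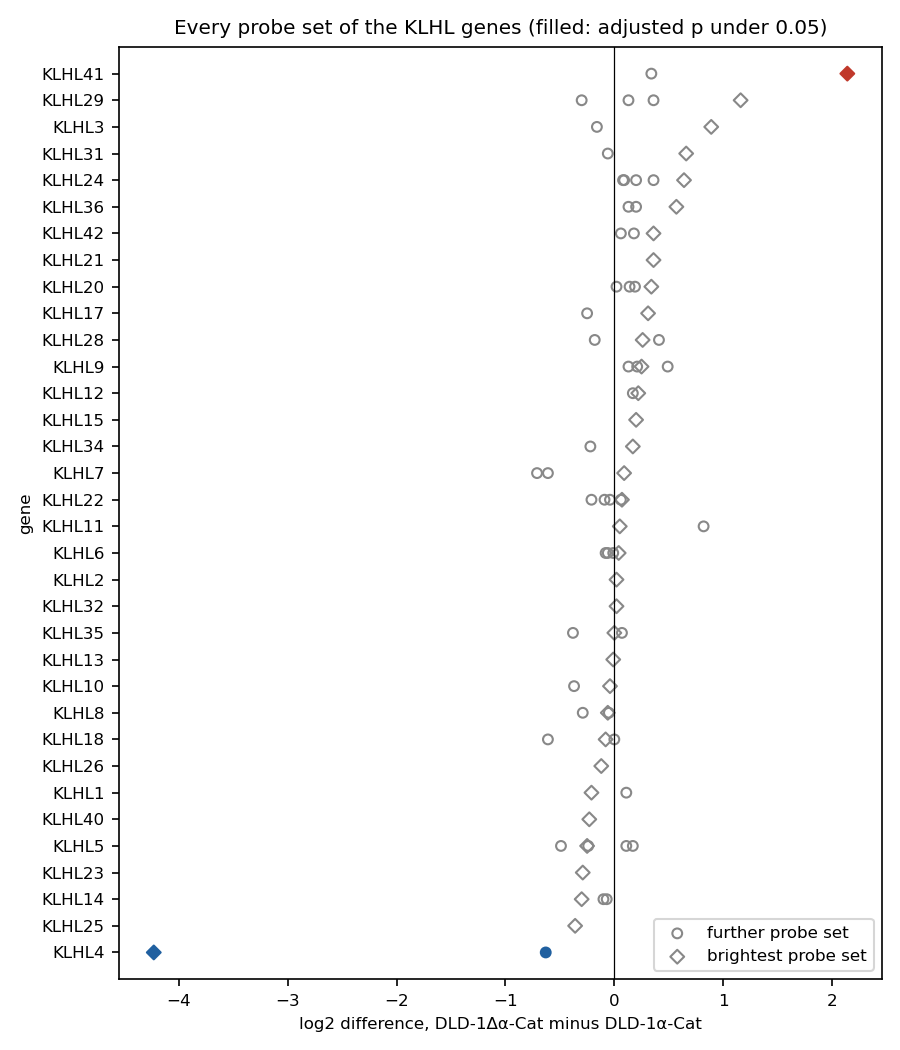
Log2 difference, DLD-1Δα-Cat minus DLD-1α-Cat (horizontal axis), for all 84 probe sets of the 34 KLHL genes (rows), with diamonds for the brightest probe set of a gene and circles for the others. Filled symbols passed in the fit over all probe sets, namely 2 of KLHL4 and 1 of KLHL41.

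Probe sets of the same gene often gave unlike differences. In the fit over every probe set 1 of the 84 was higher and 2 were lower, and none of the 41 further probe sets of uncalled genes passed. KLHL24 (adjusted p = 0.0509) and KLHL29 (adjusted p = 0.0698) missed the threshold there, with 2.45% of all probe sets called. The second KLHL11 probe set, a dim one, came closest among those of uncalled genes, with 5.41 in DLD-1Δα-Cat, against 4.59 in DLD-1α-Cat (0.82, adjusted p = 0.0524). The brightest KLHL11 probe set read 12.39, 12.45 and 12.58 in DLD-1Δα-Cat, against 12.39, 12.35 and 12.53 in DLD-1α-Cat, with overlapping groups (0.05, 95% interval -0.19 to 0.29). In KLHL7, an adaptor mutated in a form of retinitis pigmentosa, the brightest probe set gave 0.09 and the other ones -0.61 and -0.71, with no call. For KLHL23, 3 further probe sets were shared with PHOSPHO2 or the PHOSPHO2-KLHL23 readthrough and were left out of the gene; they differed by -0.19, -0.06 and 0.14, and none passed. The brightest of these 3 read 10.73 to 10.92 in DLD-1Δα-Cat, against 10.85 to 11.16 in DLD-1α-Cat, whereas the unshared KLHL23 probe set averaged 5.70 in DLD-1Δα-Cat, against 5.99 in DLD-1α-Cat.

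None of the 6 mitotic adaptors passed, and their differences lay between -0.08 and 0.36. KLHL42, which targets the microtubule-severing katanin, read 11.49, 11.46 and 11.63 in DLD-1Δα-Cat, against 11.03, 11.26 and 11.21 in DLD-1α-Cat. Its groups did not overlap, and its adjusted p was the lowest among the uncalled genes (0.36, 95% interval 0.11 to 0.61, adjusted p = 0.110). KLHL9 and KLHL13, partners in moving Aurora B during mitosis, differed by 0.25 (95% interval -0.02 to 0.51) and -0.01 (95% interval -0.35 to 0.32). KLHL13 was dim in both subclones, at 3.60 in DLD-1Δα-Cat, against 3.62 in DLD-1α-Cat. KLHL21, also an Aurora B adaptor, differed by 0.36 (95% interval -0.09 to 0.81). KLHL22, an adaptor for the mitotic kinase PLK1, differed by 0.07 (95% interval -0.30 to 0.44). KLHL18, an adaptor for Aurora A, differed by -0.08 (95% interval -0.42 to 0.26).

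KLHL2, KLHL3, KLHL17 and KLHL20 did not pass either. KLHL2 (Mayven), an actin-binding protein that also targets WNK kinases, had the brightest probe set of the family, at 12.72, 12.78 and 12.89 in DLD-1Δα-Cat, against 12.73, 12.89 and 12.69 in DLD-1α-Cat. The groups overlapped, and the 95% interval of its difference ran from -0.22 to 0.26. KLHL3, which targets WNK kinases in the distal nephron, read 6.20, 6.77 and 6.88 in DLD-1Δα-Cat, against 6.07, 6.04 and 5.06 in DLD-1α-Cat. The groups did not overlap, with replicate 3 of DLD-1α-Cat well below the other arrays (difference 0.89, 95% interval 0.19 to 1.59, adjusted p = 0.148). KLHL20, an adaptor for the death-associated kinase DAPK1 and for PML, differed by 0.34 (95% interval 0.08 to 0.59, adjusted p = 0.140). KLHL17 (actinfilin), an actin-binding protein of neurons, differed by 0.31 (95% interval -0.09 to 0.71).

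Among members with other known substrates, KLHL12 acts on Dishevelled and on the vesicle coat protein SEC31A. It read 12.33, 12.28 and 12.27 in DLD-1Δα-Cat, against 12.13, 12.19 and 11.92 in DLD-1α-Cat. Every DLD-1Δα-Cat array was higher, but KLHL12 did not pass (0.22, adjusted p = 0.299). KLHL25, an adaptor for the translation repressor EIF4EBP1, read 6.42 to 6.59 in DLD-1Δα-Cat, against 6.68 to 7.03 in DLD-1α-Cat (-0.36, adjusted p = 0.146). KLHL15, an X-linked adaptor for a PP2A subunit, differed by 0.20 (95% interval -0.06 to 0.46). The lymphoid KLHL6 and KLHL14 and the spermatid gene KLHL10 differed by 0.04, -0.30 and -0.04 and did not pass.

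The remaining genes, with no role set for them here, were KLHL8, KLHL11, KLHL23, KLHL26, KLHL28, KLHL32, KLHL34, KLHL35 and KLHL36. Their differences ran from -0.29 for KLHL23 to 0.57 for KLHL36. KLHL36 read 9.91, 10.04 and 9.90 in DLD-1Δα-Cat, against 8.99, 9.77 and 9.38 in DLD-1α-Cat. The groups did not overlap, the DLD-1α-Cat arrays were the more spread ones, and the gene did not pass (adjusted p = 0.142). It passed without replicate 2 of DLD-1α-Cat (0.76, adjusted p = 0.0358). KLHL26 read 7.46 to 7.59 in DLD-1Δα-Cat and 7.66 on every DLD-1α-Cat array, a difference of -0.12 (adjusted p = 0.488).

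The X chromosome carries 4 of the 34 genes, KLHL4, KLHL13, KLHL15 and KLHL34, and only KLHL4 passed. In 12 genes of the family no array of one subclone reached into the range of the other, 9 of them higher and 3 lower in DLD-1Δα-Cat. That is 35.3% of the members, where 27.2% of all genes did not overlap (14.1% of all genes higher and 13.1% lower). Among the 30 uncalled genes, 6 had an unadjusted p under 0.05, 5 higher (KLHL3, KLHL20, KLHL31, KLHL36 and KLHL42) and 1 lower (KLHL25). For 27 of the 30 the 95% interval lay within 1 on the log2 scale, and it reached 1 or more for KLHL3, KLHL31 and KLHL36. The 17 members brighter than the median of all genes had differences of -0.25 to 0.64 and 1 call, and the 17 dimmer ones -4.23 to 2.14 and 3 calls. In all genes, 6.55% of the brighter and 4.48% of the dimmer ones were called.

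Genes near KLHL4 on the X chromosome differed in both directions. Of the 10 tested genes on each side in RefSeq order, 2 rose and 1 fell, and the median difference of the 20 was 0.05. The 3 called are 15% of these genes, where 5.52% of all genes were called. The window was centred on KLHL4, whose fall was known beforehand, and the plan had named only the 3 tested genes on each side. This share is therefore a description and no test of the region. SH3BGRL, a thioredoxin-like protein, stood 10 places before KLHL4 and read 11.89, 11.57 and 11.62 in DLD-1Δα-Cat, against 4.73, 4.45 and 5.02 in DLD-1α-Cat (6.96, adjusted p = 2.85e-06). RPS6KA6, a ribosomal S6 kinase, stood 7 places before KLHL4 and read 9.43, 9.69 and 9.69 in DLD-1Δα-Cat, against 3.85, 3.64 and 3.76 in DLD-1α-Cat (5.86, adjusted p = 2.26e-06). Both were higher on every DLD-1Δα-Cat array, as were 14.1% of all genes. POF1B, an actin-binding epithelial protein 2 places before KLHL4, read 10.99, 11.05 and 11.09 in DLD-1Δα-Cat, against 11.85 to 12.04 in DLD-1α-Cat (-0.92, adjusted p = 0.00307). The direct neighbours DACH2 (0.09) and CPXCR1 (0.11) were dim in both subclones and did not pass, and nor did ZNF711 (0.56, adjusted p = 0.199), PABPC5 (-0.04) and PCDH11X (0.21).

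KLHL41 rose with the 2 tested genes just before it on chromosome 2. The neighbourhoods of the 3 genes that rose were looked at after their calls were known, and called neighbours were not followed into the alternative fits. BBS5, a subunit of the BBSome that carries membrane proteins to cilia, stood next to KLHL41. It read 6.78, 6.11 and 6.91 in DLD-1Δα-Cat, against 4.91, 3.71 and 4.29 in DLD-1α-Cat (2.30, SE 0.326, adjusted p = 0.00970). LRP2 (megalin), an endocytic receptor, was the next gene out, at 6.54, 6.04 and 6.21 in DLD-1Δα-Cat, against 3.71, 4.62 and 5.23 in DLD-1α-Cat (1.74, SE 0.353, adjusted p = 0.0345). In all 3 genes every DLD-1Δα-Cat array was above every DLD-1α-Cat array, as was the case for 14.1% of all genes. FASTKD1, on the other side of KLHL41, differed by -0.05 (adjusted p = 0.797), and no further gene of that window passed. The 2 called neighbours are 10% of the 20 genes around KLHL41, where 5.52% of all genes were called.

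KLHL24 also had a called gene beside it. YEATS2, a histone acylation reader and the next tested gene after KLHL24 on chromosome 3, differed by 0.59 (SE 0.124, adjusted p = 0.0407). LAMP3, a lysosomal membrane protein 5 places before KLHL24, was 2.83-fold higher (SE 0.239 on the log2 scale, adjusted p = 0.0149). KLHL6, the direct neighbour on the other side, did not pass (0.04). The 2 called neighbours are 10% of the 20 genes around KLHL24, where 5.52% of all genes were called. Around KLHL29 none of 20 genes passed by limma, and their differences ran from -0.37 to 0.79.

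**Figure D4:**
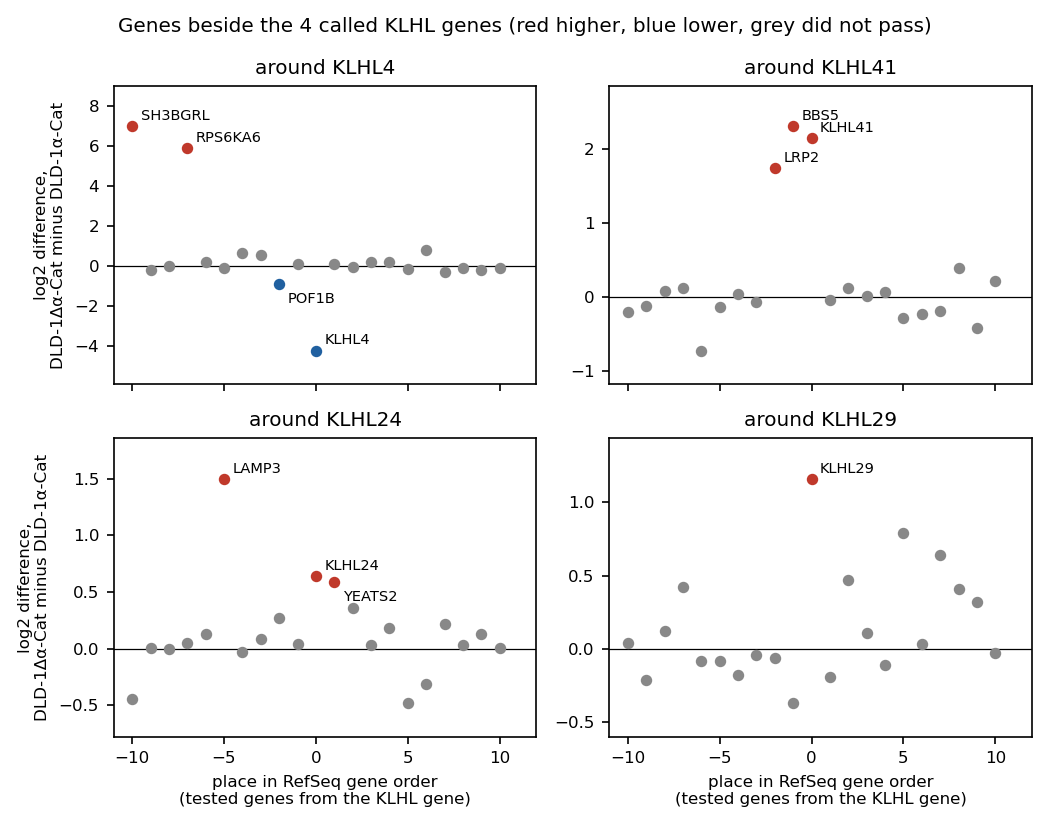
Log2 difference, DLD-1Δα-Cat minus DLD-1α-Cat (vertical axis, scaled for each panel), of the called KLHL genes at 0 and of the 10 tested genes on each side in RefSeq order (horizontal axis). Around KLHL4 the called genes lie at 6.96, 5.86, -0.92 and -4.23, and KLHL41 lies beside BBS5 at 2.30 and LRP2 at 1.74.

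Of 11 measured BTB-Kelch relatives without a KLHL symbol, 1 fell and none rose, with a median of 0.03. That is 9.09% of them, where 5.52% of all genes were called. ENC1, an actin-associated Kelch protein, read 11.07, 10.92 and 10.94 in DLD-1Δα-Cat, against 11.50, 11.62 and 11.62 in DLD-1α-Cat (-0.60, SE 0.0960, adjusted p = 0.0151). ENC1 did not pass without replicate 2 or 3 of DLD-1Δα-Cat (adjusted p = 0.0770 and 0.0700) or replicate 3 of DLD-1α-Cat (adjusted p = 0.0647). KEAP1, the Kelch adaptor for the oxidative stress factor NRF2, differed by 0.04 (95% interval -0.20 to 0.28), and IVNS1ABP by 0.14 (95% interval -0.10 to 0.38). KBTBD11 averaged 8.44 ± 0.510 in DLD-1Δα-Cat, against 6.72 ± 1.26 in DLD-1α-Cat (SD, n = 3 each), and did not pass (1.71, adjusted p = 0.151).

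Neither the scaffold nor the RING subunit of the ligase passed. CUL3 averaged 12.58 in DLD-1Δα-Cat, against 12.51 in DLD-1α-Cat (0.07, 95% interval -0.16 to 0.30), and its RING partner RBX1 averaged 12.95 in DLD-1Δα-Cat, against 12.94 in DLD-1α-Cat (0.01, 95% interval -0.24 to 0.26). Of 21 measured genes of the ligase and of neddylation, the modification that activates cullins, 1 fell and none rose (median -0.04), or 4.76% called, beside 5.52% of all genes. That was NAE1, a subunit of the enzyme that activates NEDD8, at -0.44 (SE 0.0987, adjusted p = 0.0494), and it passed in 0 of the 6 fits without an array (-0.49 to -0.40, adjusted p from 0.0682 to 0.183).

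Of 17 other BTB adaptors of CUL3, 1 rose and 2 fell (median 0.02), or 17.6% called, beside 5.52% of all genes. BTBD3, known for orienting dendrites in the cortex, rose by 0.77 (adjusted p = 0.0125). It did not pass without replicate 3 of DLD-1Δα-Cat (adjusted p = 0.0521) or replicate 3 of DLD-1α-Cat (adjusted p = 0.0602). RHOBTB1 (-0.65, adjusted p = 0.0258) and RHOBTB2 (-0.40, adjusted p = 0.0487), GTPase-like proteins with BTB domains, fell, and passed in 0 of the 6 fits without an array (adjusted p from 0.0551 to 0.0950 for RHOBTB1 and from 0.0598 to 0.190 for RHOBTB2). Under the replicate block neither passed (adjusted p = 0.0544 for RHOBTB1 and 0.0521 for RHOBTB2). The mean of the RHOBTB2 probe sets differed by -0.21 (adjusted p = 0.253).

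Among 28 reported substrates and partners of KLHL ligases, 2 rose and 2 fell (median 0.05), or 14.3% called, beside 5.52% of all genes. WNK4, the kinase targeted through KLHL3, read 7.92, 8.26 and 8.48 in DLD-1Δα-Cat, against 6.54, 7.35 and 6.79 in DLD-1α-Cat (1.33, SE 0.229, adjusted p = 0.0197). WNK1 did not pass (-0.67, adjusted p = 0.116). Both substrates named above for KLHL20 were called, in opposite directions. DAPK1 read 12.46, 12.82 and 12.84 in DLD-1Δα-Cat, against 11.18, 11.80 and 11.54 in DLD-1α-Cat (2.30-fold, SE 0.182 on the log2 scale, adjusted p = 0.0125). PML fell (-0.67, SE 0.120, adjusted p = 0.0227), as did PLK1 (-0.68, SE 0.142, adjusted p = 0.0387). WNK4 and DAPK1 did not pass without replicate 2 or 3 of DLD-1Δα-Cat or replicate 3 of DLD-1α-Cat (adjusted p from 0.0692 to 0.0945 for WNK4 and from 0.0518 to 0.0611 for DAPK1). PML passed only without replicate 1 (adjusted p = 0.0432) or 2 (adjusted p = 0.0258) of DLD-1α-Cat, and PLK1 only without replicate 2 of DLD-1α-Cat (adjusted p = 0.0440). The mean of the 10 PML probe sets differed by -0.26 (adjusted p = 0.160). In the other fits without an array adjusted p ran from 0.0638 to 0.0963 for PML and from 0.0575 to 0.140 for PLK1. These are RNA levels, whereas the ligases act on proteins, which the array does not measure.

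Of 21 measured NRF2 target genes, the output that KEAP1 holds down, 1 fell and none rose (median 0.04), or 4.76% called, beside 5.52% of all genes. GCLC, the catalytic subunit of glutathione synthesis, fell (-0.45, adjusted p = 0.0431), passed in 0 of the 6 fits without an array (adjusted p from 0.0705 to 0.166) and lost its call under the replicate block (adjusted p = 0.0623). The mean of its 3 probe sets differed by -0.06 (adjusted p = 0.793). NQO1, a much used NRF2 target, differed by 0.07 (adjusted p = 0.801). The list was not flat throughout. Its differences ran from -0.47 for HMOX1 (adjusted p = 0.145) to 1.21 for AKR1B10 (adjusted p = 0.127), and neither passed. With the β-actin ratio as a covariate none of the called genes of these 5 lists passed (adjusted p from 0.271 to 0.693). That fit cannot tell RNA quality from the subclone, since the ratio does not overlap between the subclones. PLK1 (-0.27) and PML (-0.39) moved by over 1.5 times, whereas others kept about their size, such as DAPK1 (1.16), BTBD3 (0.83), ENC1 (-0.54) and RHOBTB1 (-0.67).

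**Figure D5:**
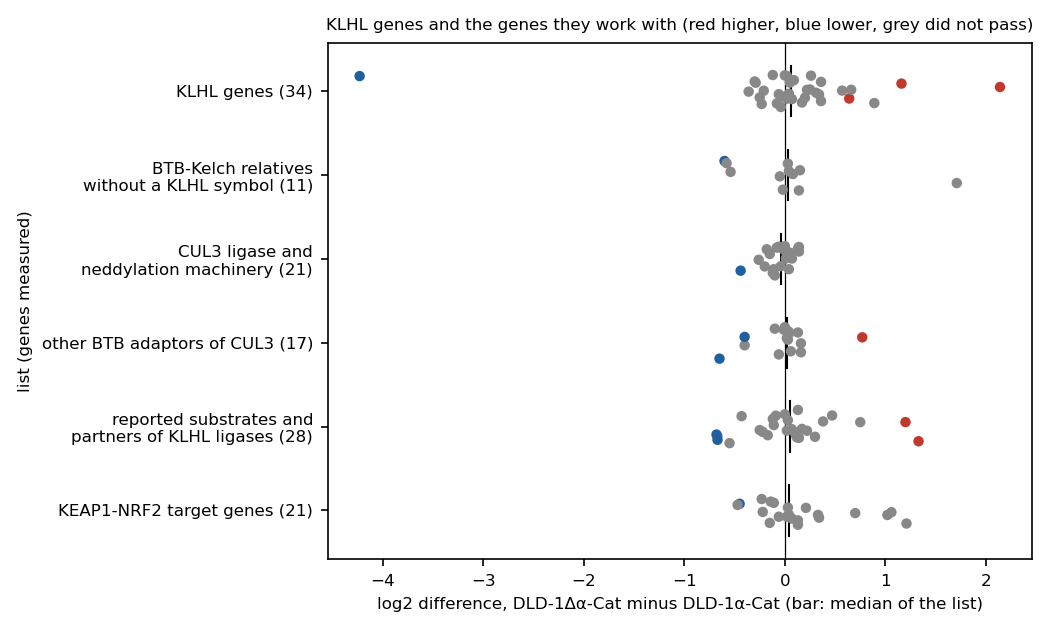
Log2 difference, DLD-1Δα-Cat minus DLD-1α-Cat (horizontal axis), of each KLHL gene and of each measured gene in 5 lists of their relatives, ligase partners and targets (rows); points are genes and bars are medians. The medians lie between -0.04 and 0.06, and KLHL4 at -4.23 and KLHL41 at 2.14 lie outside the range of the other lists.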

How the data were processed

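The log2 values used were deposited by the authors. The submitters' processing notes name RMA and Affymetrix Expression Console without versions. RMA gives the arrays one distribution (medians 6.12 to 6.15), which hides any shift common to every gene. Detection calls were not used. After removal of 62 control probe sets, 41091 probe sets carried 1 gene symbol, and each gene was read on its brightest probe set, with no filter on dim genes. Symbols were matched to RefSeq (GRCh38.p14) by gene ID. limma 3.58.1 in R 4.3.3 compared the subclones (lmFit and eBayes, two-sided, Benjamini-Hochberg over 19775 genes) and was tested on simulated data. Members and lists were chosen with earlier results of these data known. Any KLHL gene may be named, and of each list the passing members; further ones were named after their values were seen. The titles number both groups alike. After subtraction of the group means, arrays that share a number correlated at 0.225, 0.376 and 0.122. Arrays with unlike numbers correlated at -0.317 to 0.0666, and whether the numbers mark pairs was not tested. Arrays that share a number were treated as pairs in an alternative fit with a replicate block. The others were further normalizations, probe-set choices, variance models, array weights and leaving out each array.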

Additional observations from a re-analysis of the deposited data

How the results depend on the processing

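Over the 16 alternatives KLHL4 kept its direction and passed wherever it was tested, from -4.37 to -2.43 (-2.43 with the mean of its probe sets), and from -4.36 to -4.09 without an array. Leaving out dim genes (13 of the 34 members) removed KLHL4 and KLHL41, so that 0 KLHL genes were lower there. The number of higher KLHL genes was 3 in the report and depended on the fit: 1 with the mean of probe sets, 1 with every probe set tested, 0 without moderation of the variances, 0 with the β-actin ratio in the fit (added once the data had been seen), and 1 to 4 without an array. It was 1 without replicate 2 or 3 of DLD-1Δα-Cat or replicate 1 or 3 of DLD-1α-Cat. The 1 gene called in these fits was KLHL41, which passed without any 1 array (1.95 to 2.40) but not without moderation (adjusted p = 0.0870). Centring each array on its median moved all genes by -0.139, and KLHL24 did not pass (0.50, adjusted p = 0.0575); 15 members then lay above 0, against 21 as deposited. With the replicate block the counts were 3 higher and 1 lower, and RHOBTB1, RHOBTB2 and GCLC were the called genes of the lists that lost the call. The called neighbours of KLHL genes were not followed into this or any other alternative, so how far their calls depend on the fit is not known. Of the 30 uncalled members, KLHL3 passed with array weights (adjusted p = 0.0462) and KLHL36 without 1 array; 11 changed sign in at least 1 alternative without a call. CTNNA1 lay between -1.60 and -1.41 without an array and did not pass with the β-actin ratio (-1.56, adjusted p = 0.0667). The fit with that ratio cannot tell RNA quality from the subclone. No value near the bottom of the scale, such as that of KLHL4 in DLD-1Δα-Cat, can be told from background.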
